A study of Mus musculus with 3 samples.

Results

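The genes described here are 7 receptors and receptor subunits through which brain myeloid cells read bound antibody and sialic acid. Fcgr1, Fcgr3, Fcgr4 and Fcgr2b are the IgG receptor genes, and Fcer1g encodes the signalling chain shared by the activating ones among them. Siglece and Cd33 encode 2 sialic acid receptors of the Siglec family. The 7 genes were taken by name, and all, of 14221 genes listed in at least 1 count table, were found in each of the 3 tables. RNA was counted at its 3′ end in single CD11b+ CD45+ cells, a myeloid gate, taken from brain by sorting. The deficient library came from 1 mouse with MHC class II deficiency and hardly any CD4 T cells, and libraries WT 1 and WT 2 came from 2 adult wild type mice. The labels used here name no allele, and they give no age for the deficient mouse. Before sorting, cells of every library were incubated with 2.4G2, an antibody that binds the products of Fcgr3 and Fcgr2b. Its part in the transcript levels below was not tested.

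Activating IgG receptors signal through an ITAM, a tyrosine motif carried by the chain that Fcer1g encodes, and start phagocytosis and cytokine release when IgG complexes cross-link them. The product of Fcgr2b and the inhibitory Siglecs carry ITIMs, motifs that recruit phosphatases and damp such signals. Microglia, the resident macrophages of the brain parenchyma, express receptors of both kinds, and their balance is known to set the threshold at which antibody or exposed sialic acid acts on them.

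The deficient, WT 1 and WT 2 libraries held 2278, 4589 and 4815 cell barcodes and 6616662, 16230216 and 17293844 unique molecular identifiers (UMIs, each a counted RNA molecule). Filtering kept 2257, 4340 and 4667 cells, whose median UMI counts were 2824, 3384.5 and 3338. Pairs of libraries shared 13 to 28 barcodes. Cells were put in classes by the UMIs of marker genes, and each class had more of its own markers than of any other class among its 10 leading genes. Microglia-like cells numbered 2197 in the deficient library, against 3922 in WT 1 and 4410 in WT 2. Border macrophage-like cells, which line the meninges, perivascular spaces and choroid plexus, numbered 10, 33 and 27 in the deficient, WT 1 and WT 2 libraries. Classical monocyte-like cells numbered 4, 38 and 27, non-classical monocyte-like cells 14, 9 and 10, and neutrophil-like cells 17, 275 and 135 in the same order of libraries. Of the microglia-like cells of the deficient library, 1493 lay in 1 cluster, led by Ccr6 and Tagap1, that held 38 and 98 of those of WT 1 and WT 2. A smaller cluster, also led by Ccr6 and Tagap1, held 287 cells of the deficient library, against 2 and 9 of WT 1 and WT 2. None of 6 NK cell, 7 T cell and 6 mast cell or basophil markers is listed in the deficient table, and 1 of each list is in each WT table, at no more than 4.21 CPM (counts scaled to a common total) over all cells. Of 7 dendritic cell markers, 2 are listed in the deficient library and sum to 1.66 CPM, against 5 and 6 in WT with 10.3 and 21.4 CPM. Of 8 markers of neural or vascular cells, 3 are listed in the deficient library and sum to 18.6 CPM, against 5 in each WT library with 25.0 and 23.7 CPM. Those of B cells, which carry Fcgr2b, summed to 336.9 CPM in the deficient library, against 350.3 and 326.2 CPM in WT, with 3 of 8 markers listed in the deficient library, against 4 and 3. Cells with 3 of these markers numbered 6 in the deficient library, against 18 and 5 in the WT libraries. The genotype and the library cannot be told apart, since the deficient group has 1 library.

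Siglece, an ITIM receptor for sialic acid, was the single member that changed in microglia-like cells, and it was lower in the deficient library. Its level was 119.3 CPM, here scaled per library and class, in the deficient library, against 188.7 CPM in WT 1 and 238.8 CPM in WT 2. The deficient library lay below both WT libraries. The exact Poisson 95% interval of its count, 111.0 to 128.0 CPM, did not reach that of either (181.5 to 196.0 CPM in WT 1 and 231.2 to 246.5 CPM in WT 2). The 2 WT intervals did not reach each other either, since they cover counting error only. Members whose folds did not pass, such as Fcgr3 and Fcer1g, also had deficient intervals apart from those of both WT libraries. Siglece fell by 0.84 on the log2 scale (SE 0.13, adjusted p = 0.000462, edgeR quasi-likelihood test with Benjamini-Hochberg adjustment). The test sums the UMIs of each library. The WT pair leaves 1 residual degree of freedom, so its p-values rest largely on a spread estimated over all genes. The SD of log2 Siglece over the WT libraries was 0.251, and DESeq2 gave an SE of 0.30. DESeq2 gave a log2 fold change of -0.83 and did not make the call (adjusted p = 0.109). Over the other alternatives that gave a test the adjusted p lay between 2.27e-14 and 0.0286.

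Among the 7 members tested, 1 was called lower and 0 higher in microglia-like cells. Over all 11882 genes tested, 8.52% were called, 6.79% lower and 1.73% higher. The count of members is thus near the background. With edgeR, 3 of the 7 had an unadjusted p under 0.05, of which 2 were higher, against 2366 of the 11882 genes tested. DESeq2, which called 4.68% of genes, called 0 members, with 4 of them and 983 of all genes at an unadjusted p under 0.05. Limma voom, which called 7.20%, called 1 member. The median log2 fold change was 0.22 over the members and -0.0012 over all genes tested. The other 6 members all had a higher CPM in the deficient library than in both WT libraries, which 39.0% of all genes did, and 41.8% lay below both.

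The activating receptors are taken first. Fcgr3, which encodes the low-affinity activating receptor CD16, had the highest level of the IgG receptor genes in microglia-like cells, with 1726 CPM in the deficient library, against 1428 CPM in WT 1 and 1546 CPM in WT 2. Fcgr1, which encodes the high-affinity receptor CD64, had 568.8 CPM in the deficient library, against 516.7 and 528.5 CPM in the WT libraries. Fcgr4, which encodes an activating receptor for IgG2a and IgG2b, had 22.0 CPM in the deficient library, against 14.9 and 18.6 CPM. For each of these genes the deficient library was the highest, yet the folds did not pass. The log2 fold change was 0.22 for Fcgr3 (SE 0.12, adjusted p = 0.337, edgeR), 0.13 for Fcgr1 (SE 0.10, adjusted p = 0.542) and 0.40 for Fcgr4 (SE 0.17, adjusted p = 0.188). The WT libraries themselves differed, so that Fcgr4 stood at 0.24 without WT 1 and 0.58 without WT 2. After thinning each cell to 1000 UMIs Fcgr4 stood at 0.72 (adjusted p = 0.0611, edgeR). Fcgr3 then stood at 0.25 and Fcgr1 at 0.021. Over all retained cells of every class, Fcgr4 rose by 0.59 (adjusted p = 0.0263, edgeR), where 6.90% of genes were called. Non-classical monocyte-like cells gave 43 of its 203 UMIs in the deficient library, against 14 of 318 in WT 1 and 15 of 348 in WT 2, and neutrophil-like cells gave 4, against 73 and 24. The part of either class in that call was not tested. Fcer1g, the shared chain, had 2907 CPM in the deficient library, against 2303 CPM in WT 1 and 2534 CPM in WT 2, which is 0.27 on the log2 scale (SE 0.13, adjusted p = 0.259). It had 1.25 UMIs for each activating IgG receptor UMI in the deficient library, against 1.18 in WT 1 and 1.21 in WT 2.

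On the inhibitory side, Fcgr2b had 249.6 CPM in microglia-like cells of the deficient library, against 191.0 CPM in WT 1 and 213.4 CPM in WT 2. The deficient library lay above both. The log2 fold change of 0.31 (SE 0.10) did not pass (adjusted p = 0.0776, edgeR). It passed with edgeR in 3 of the 10 alternatives with a test. These were classes from clusters (adjusted p = 0.0490, 8.99% of genes called), microglia without those high in interferon, immediate early, cell cycle or Lpl and Cst7 genes (0.0206, 9.59% called), and cells thinned to 1000 UMIs (log2 fold change 0.45, adjusted p = 0.00556, 7.11% called). Thinning was a single random draw. It left 558 of 1601 Fcgr2b UMIs in the deficient library, against 718 of 2683 in WT 1 and 861 of 3380 in WT 2. Cd33, whose human counterpart is an ITIM receptor, had 309.0 CPM in the deficient library, against 285.1 and 279.8 CPM in WT. Its WT values lay close together and the fold, 0.14 on the log2 scale (SE 0.10), did not pass (adjusted p = 0.474). The 2 Siglecs thus stood on opposite sides of WT in the deficient library. Siglece took 27.9% of the summed Siglece and Cd33 UMIs there (exact Clopper-Pearson 95% interval 26.2 to 29.6), against 39.8% in WT 1 (38.6 to 41.0) and 46.1% in WT 2 (44.97 to 47.1).

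**Figure D1:**
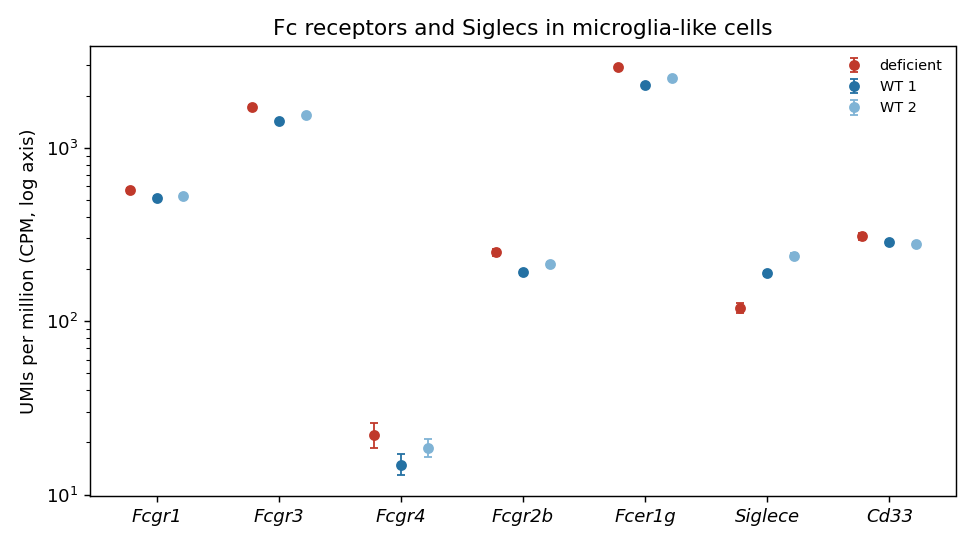
Level of each member in microglia-like cells in CPM on a log axis, by library, with the deficient library left of WT 1 and WT 2 and bars for exact Poisson 95% intervals. Siglece is the single gene at which the deficient library lies lowest, with 119.3 CPM, against 188.7 and 238.8 CPM in WT.

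**Figure D2:**
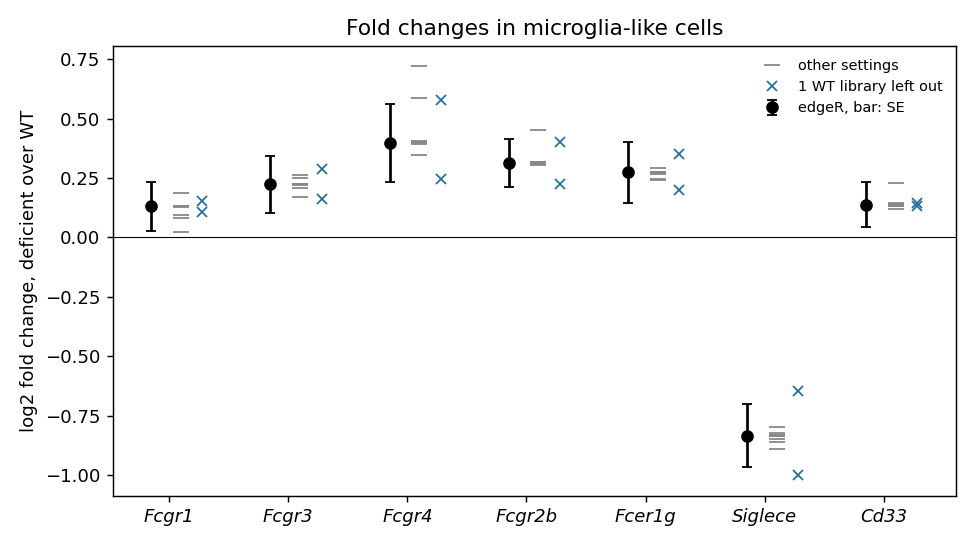
Log2 fold change of each member in microglia-like cells, deficient over WT, with the edgeR value and its SE in black, the other settings as grey dashes and values with 1 WT library left out as crosses. Siglece lies below 0 at every setting shown, between -1.001 and -0.65, and the other 6 members lie above 0.

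In microglia-like cells the Fcgr2b share of IgG receptor UMIs was higher in the deficient library than in both WT libraries, by an amount that differed with and without thinning. A UMI counts 1 molecule at its 3′ end whatever the transcript's length, so shares below are shares of counted molecules. Fcgr2b took 9.72% of IgG receptor UMIs in microglia-like cells of the deficient library (9.28 to 10.2), against 8.88% in WT 1 (8.56 to 9.21) and 9.25% in WT 2 (8.96 to 9.55). The deficient value exceeded the WT mean by 0.658 percentage points, with a WT SD of 0.263 points (n = 2), and its interval overlapped that of WT 2. With each cell thinned to 1000 UMIs the share was 10.1% in the deficient library, against 8.57% and 8.55% in the WT libraries, a difference of 1.49 points from the WT mean. Unthinned, Fcgr3 took 67.3% of them in the deficient library, against 66.4% and 67.0% in the WT libraries, Fcgr1 22.2% against 24.02% and 22.9%, and Fcgr4 0.856% against 0.692% and 0.805%. With the Siglecs added, the inhibitory genes (Fcgr2b, Siglece and Cd33) made up 22.6% of the deficient library's receptor UMIs, against 25.3% in WT 1 and 25.9% in WT 2. Cd33 was counted as inhibitory after its human counterpart. No test was run on shares. An exact permutation test of 1 library against 2 cannot give a p below 1 in 3.

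Most microglia-like cells with a Fcgr2b UMI also held one of an activating receptor. After thinning each cell to 1000 UMIs, this was so in 441 of 484 such cells of the deficient library, against 545 of 635 in WT 1 and 657 of 753 in WT 2. Of all thinned cells, 88.0% in the deficient library held a UMI of an activating IgG receptor gene, against 84.8% in WT 1 and 86.7% in WT 2. A Fcgr2b UMI was found in 22.5% of deficient cells (20.7 to 24.3), against 16.5% (15.3 to 17.7) and 17.3% (16.2 to 18.5) of WT cells, and in neutrophil-like cells in 6.67%, 2.63% and 4.07% of those of the deficient, WT 1 and WT 2 libraries. Cells with a Fcgr2b UMI and no activating UMI made up 1.995% of the deficient library, against 2.33% and 2.21% of WT. Unthinned, a Fcgr2b UMI was found in 48.0% of deficient cells, against 46.3% and 48.8% of WT cells, at median depths of 2825 UMIs, against 3377 and 3326. A Siglece UMI was found in 10.7% of thinned deficient cells, against 17.7% and 21.5% of WT cells, and unthinned in 28.2%, against 46.7% and 55.1%. Non-classical monocyte-like cells, at median depths of 2286.5, 4482 and 3177 UMIs, gave a Siglece UMI in 1 of 14, 0 of 9 and 0 of 10 cells of the deficient, WT 1 and WT 2 libraries. The exact Clopper-Pearson limits of these shares reach 33.9%, 33.6% and 30.8%, so the class is too small to set a background for the shares of microglia-like cells.

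Neutrophil transcripts in microglia-like cells differed between the libraries. S100a8 and S100a9, which neutrophils express at very high levels, summed to 38.5 CPM in microglia-like cells of the deficient library, against 930.8 and 503.8 CPM in WT. Scaled by their level in neutrophil-like cells, free neutrophil RNA at this level would make up at most 0.118% of the microglial level of Siglece and at most 1.04% of that of Fcgr4, with the other 5 members at or below 0.258%.

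To show promoter sequence of the member that was called (Siglece), and of Fcgr1 and Fcgr4, whose levels by microglial cluster and by cell class are described below, the 250 bases before the RefSeq start of each gene are given, from GRCm38.p6, 5′ to 3′ on the gene's strand. Capitals mark GAGGAA, the core bound by the myeloid factor PU.1, TTCNNNGAA, the form bound by STAT factors, and an interferon response form, GAAA followed by 2 bases of any kind and GAAA. Both strands were searched, so GAGGAA on the opposite strand reads TTCCTC.
Siglece, chr7:43660162-43660411, minus strand: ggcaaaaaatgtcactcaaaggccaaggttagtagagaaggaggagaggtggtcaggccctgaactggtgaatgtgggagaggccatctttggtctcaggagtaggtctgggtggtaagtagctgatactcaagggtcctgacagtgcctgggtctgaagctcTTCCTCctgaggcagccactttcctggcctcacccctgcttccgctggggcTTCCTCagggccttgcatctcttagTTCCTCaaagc
Fcgr1, chr3:96293970-96294219, minus strand: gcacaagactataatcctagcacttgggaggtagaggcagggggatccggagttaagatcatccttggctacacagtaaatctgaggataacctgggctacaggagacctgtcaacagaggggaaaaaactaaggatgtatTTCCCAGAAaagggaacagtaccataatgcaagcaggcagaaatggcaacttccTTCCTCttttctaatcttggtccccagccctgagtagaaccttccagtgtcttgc
Fcgr4, chr1:171018676-171018925, plus strand: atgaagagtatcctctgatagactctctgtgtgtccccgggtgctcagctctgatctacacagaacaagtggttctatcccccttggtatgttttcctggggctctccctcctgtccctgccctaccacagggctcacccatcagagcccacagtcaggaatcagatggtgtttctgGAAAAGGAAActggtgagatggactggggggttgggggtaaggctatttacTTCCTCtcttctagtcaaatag
Siglece had 3 matches of GAGGAA and none of the other motifs. Fcgr1 had 1 match of GAGGAA and 1 of TTCNNNGAA, and Fcgr4 1 of GAGGAA and 1 of the interferon response form. Of 27025 RefSeq promoters of the same length, 23.1% held GAGGAA, 7.18% TTCNNNGAA and 3.04% the interferon response form. A match is a description of letters and not a site shown to be bound. On the same build, Fcgr2b, Fcgr4, Fcgr3 and Fcer1g lie within 1 stretch of chromosome 1 (170958617 to 171234365 from the first start to the last end), Fcgr1 lies on chromosome 3, and Siglece and Cd33 lie on chromosome 7. Of the 60-base windows in the last 500 bases of each gene's transcripts, 0.898% of those of Fcgr2b were shared, with Fcgr3, and 0 of those of the other members were shared with another gene. Fcgr2b overlaps Gm38204, which is annotated on the opposite strand.

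Within microglia, Fcgr1 was highest in an interferon-induced state. In the cluster led by Ifit3, Ifit2 and other interferon-induced genes, Fcgr1 stood at 955.5 CPM in the deficient library (49 cells), against 836.6 CPM in WT 1 (75 cells) and 908.7 CPM in WT 2 (79 cells). The remaining microglia-like cells had 559.3 CPM in the deficient library, against 510.5 and 521.5 CPM in WT. Each library thus had its highest Fcgr1 level in this cluster among the clusters with 20 cells of every library, while Fcgr3 stood at 1553 CPM there in the deficient library, against 1298 and 1601 CPM in WT, and in the remaining cells at 1730 CPM, against 1431 and 1545 CPM. Fcgr4 stood at 32.5 CPM there in the deficient library, against 41.3 and 34.9 CPM in WT, on 5, 11 and 10 UMIs. In the cluster led by Fam20c, Gas2l3, Cst7 and Lpl, Fcgr1 stood at 322.7 CPM in the deficient library (22 cells), against 333.2 and 387.7 CPM in WT (41 and 68 cells), below the rest of each library. The cluster led by immediate early and stress genes such as Fosb and Atf3 had the lowest Fcer1g of the compared clusters in each library. Fcer1g stood there at 2014 CPM in the deficient library, against 1758 and 1839 CPM in WT. Fcgr1 was also low in this cluster, with 353.0 CPM in the deficient library, against 381.0 and 399.5 CPM in WT. Every member lay below the level of the remaining microglia-like cells there in each library.

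Across the 9 clusters with 20 cells in every library, formed without the 7 members, Siglece of the deficient library lay below both WT libraries in 8. The exception was the larger cluster led by Ccr6 and Tagap1, which holds most deficient cells. It had 124.4 CPM in the deficient library, against 99.4 CPM in WT 1 (11 UMIs) and 272.3 CPM in WT 2. In each of the other 8 the deficient library had only 4 to 32 Siglece UMIs. Its interval lay below that of WT 1 only in the cluster led by genes such as Fosb and Atf3. The smaller cluster led by Ccr6 and Tagap1 had fewer than 20 cells in each WT library and was not compared. Fcer1g lay above both WT libraries in 8 of the 9, and Fcgr2b in 5. Fcgr1 lay above both in 4 clusters and below both in 4. The clusters of a library share its animal and depth, so these counts are a description with no test.

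**Figure D3:**
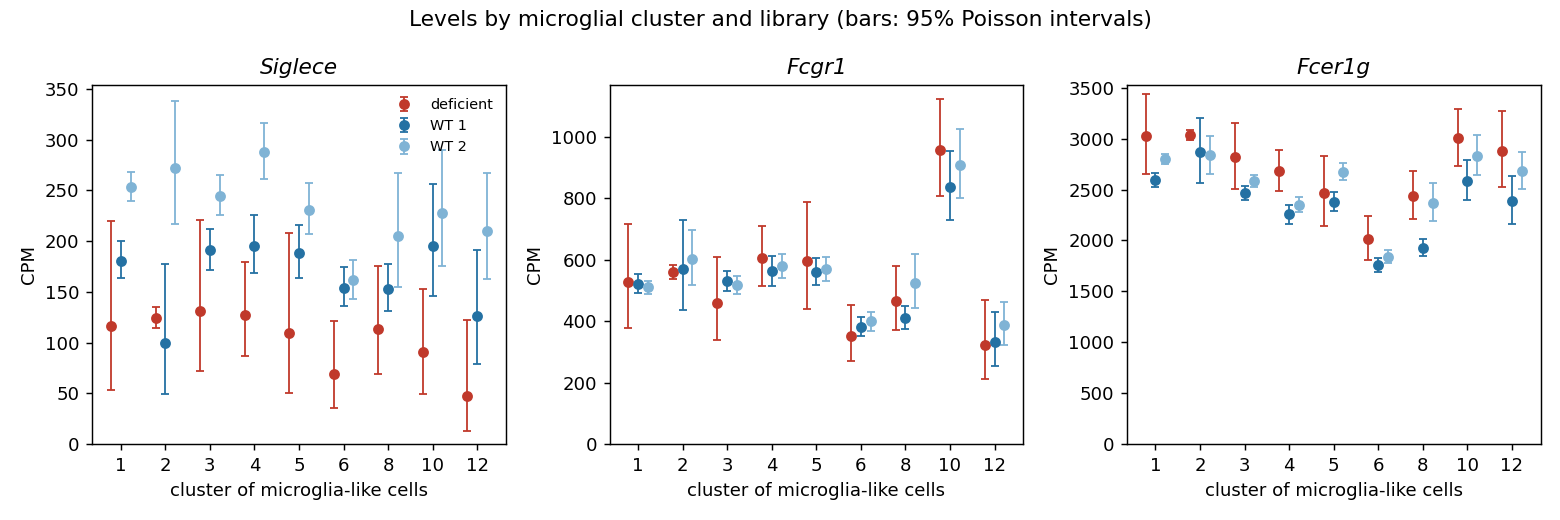
Siglece, Fcgr1 and Fcer1g in CPM in the 9 microglial clusters with 20 cells in each library, by library, with the deficient library left of WT and bars for exact Poisson 95% intervals. Siglece lies lowest in the deficient library in 8 clusters, on 4 to 32 UMIs in each. Fcgr1 is highest in cluster 10, led by interferon-induced genes, with 955.5 CPM in the deficient library, against 836.6 and 908.7 CPM in WT.

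The other classes held few cells, so their values carry exact Poisson 95% intervals for counting error and no test. Fcer1g of the deficient library lay above both WT libraries in each of the 5 classes, microglia-like cells included. It stood at 3428 CPM in border macrophage-like cells of the deficient library (2860 to 4076), against 2520 (2269 to 2791) and 2519 CPM (2242 to 2821) in WT. In neutrophil-like cells it stood at 2972 CPM in the deficient library (2507 to 3499), against 2202 (2121 to 2285) and 2327 CPM (2216 to 2443). The deficient interval did not reach those of WT in border macrophage-like cells. In neutrophil-like cells it did not either, but without the cluster led by Elane, described below and left out after seeing the data, WT stood at 2442 (2348 to 2539) and 2578 CPM (2442 to 2719), and the deficient interval overlapped both. In classical monocyte-like cells, with 3938 CPM in the deficient library (3251 to 4726), against 2962 (2774 to 3159) and 3073 CPM (2841 to 3319), it reached that of WT 2. With classes from Leiden clusters, the deficient interval lay above both WT intervals in classical monocyte-like cells, and in neutrophil-like cells it overlapped that of WT 2.

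Non-classical monocyte-like cells, the patrolling monocytes of blood, stood apart by Fcgr4. It stood at 1083 CPM in the deficient library (783.4 to 1458, 14 cells), against 357.3 CPM in WT 1 (195.4 to 599.5, 9 cells) and 410.2 CPM in WT 2 (229.6 to 676.6, 10 cells). The interval of the deficient library did not reach those of WT. The other IgG receptor genes were also higher in this class of the deficient library, on few UMIs. Fcgr3 stood at 478.3 CPM, against 178.7 and 191.4 CPM in WT 1 and WT 2, and Fcgr1 at 252 CPM, against 102 and 54.7 CPM. Fcgr2b stood at 428.0 CPM, against 178.7 and 54.7 CPM. In the same cells the markers of classical monocytes made up 0.546% of the UMIs of the median cell in the deficient library, against 0.328% and 0.158% in the WT libraries, and its part in the Fcgr4 level was not tested. Fcgr4 took 48.3% of IgG receptor UMIs there in the deficient library, against 43.8% and 57.7% in the WT libraries, with no order between the genotypes. Fcer1g stood at 6520 CPM in this class in the deficient library, against 5207 and 5771 CPM in WT, its highest level of any class in each library. Siglece and Cd33 had at most 1 UMI in each library of this class, where 3 UMIs would be 75.5, 76.6 and 82.0 CPM in the deficient, WT 1 and WT 2 libraries.

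Border macrophage-like cells had a higher inhibitory share of IgG receptor UMIs than microglia-like cells. Fcgr2b stood at 428.5 CPM in the deficient library (244.9 to 695.9), against 501.2 CPM in WT 1 (392.9 to 630.2) and 581.3 CPM in WT 2 (452.3 to 735.7). The intervals of the 3 libraries overlapped, and that of the deficient library also reached its microglia-like value. Fcgr2b took 22.2% of IgG receptor UMIs in the deficient library (13.3 to 33.6), against 28.4% (23.0 to 34.3) and 28.6% (23.0 to 34.8) in WT, each above the 8.88% to 9.72% of microglia-like cells. Fcgr3 stood lower in these cells than in microglia-like cells of the same library, with 803.5 CPM in the deficient library, against 720.9 and 1003 CPM in WT. With Leiden clusters it stood at 689.3 CPM in the deficient library, against 911.4 and 1021 CPM in WT, and the deficient interval then lay below that of WT 2. Fcgr1 stood at 535.7 CPM in the deficient library, against 494.4 and 421.3 CPM in WT, with overlapping intervals. Fcgr4 stood at 160.7 CPM in the deficient library (6 UMIs, 59.0 to 349.8), against 48.1 and 25.3 CPM in WT (7 and 3 UMIs), and the intervals overlapped. With classes from Leiden clusters they did not, at 192.4 CPM in the deficient library (12 UMIs, 99.4 to 336.0), against 37.1 (21.6 to 59.3) and 24.9 CPM (12.8 to 43.4) in WT. Fcgr4 then took 11.4% of IgG receptor UMIs in the deficient library (6.05 to 19.1), against 2.10% (1.23 to 3.34) and 1.33% (0.689 to 2.31) in WT. The Leiden class held 15 cells of the deficient library, in place of 10. Of its 160 cells over all libraries, 69 were border macrophage-like by marker UMIs and 26 microglia-like. A further 28 met the limits of several classes and 34 of none. Cd33 had 1 UMI in the deficient library, against 30 and 12 in the WT libraries, and Siglece had 3, 8 and 13 UMIs in the deficient, WT 1 and WT 2 libraries.

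Classical monocyte-like cells expressed Fcgr3 and Fcgr2b with little Fcgr4. Fcgr2b stood at 273.9 CPM in the 4 cells of the deficient library (8 UMIs, 118.3 to 539.7), against 157.1 and 152.0 CPM in WT. It took 40.0% of 20 IgG receptor UMIs in the deficient library (19.1 to 63.9), against 23.7% and 21.2% in the WT libraries. Fcgr3 stood at 239.7 CPM in the deficient library, against 419.9 and 403.7 CPM in WT, and the intervals again overlapped. Fcgr4 had 0 UMIs in the deficient library, where 3 UMIs would be 102.7 CPM, and 2 and 4 UMIs in WT.

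Neutrophil-like cells had the lowest Fcgr1 and Fcgr2b of the classes in WT, with intervals that overlapped those of non-classical monocyte-like cells in both WT libraries for Fcgr1 and in WT 2 for Fcgr2b. Fcgr1 had 0 UMIs in the 17 cells of the deficient library, where 3 UMIs would be 61.9 CPM, against 29.0 CPM in WT 1 and 17.0 CPM in WT 2. Fcgr2b had 1 UMI in the deficient library, against 40.8 and 36.9 CPM in WT. Cd33 stood at 330.2 CPM in the deficient library (16 UMIs, 188.8 to 536.3), against 175.7 CPM (153.4 to 200.2) and 164.8 CPM (136.2 to 197.7) in WT, and the deficient interval overlapped both. Siglece had 1 UMI in the deficient library, against 82.3 and 82.4 CPM in WT. The inhibitory genes made up 48.6% of the 37 receptor UMIs of the deficient library, against 47.1% and 49.5% in WT, above the microglial share in each library. Of the neutrophil-like cells, 21, all WT, lay in a cluster led by Elane and other genes of neutrophil precursors.

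**Figure D4:**
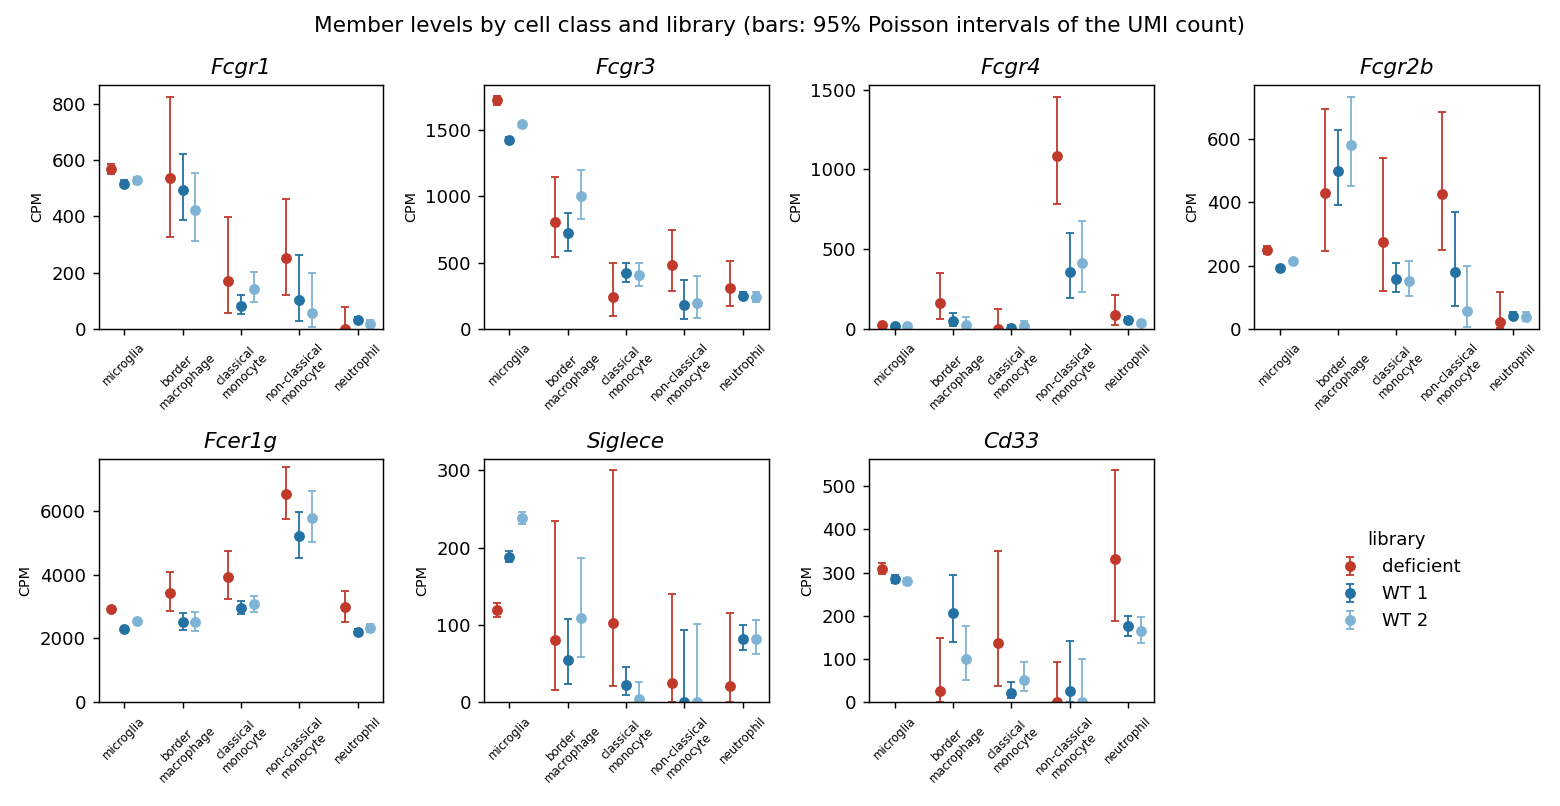
Level of each member in CPM by cell class, with the deficient library left of WT 1 and WT 2 in each class and bars for exact Poisson 95% intervals. Fcgr3 and Siglece are highest in microglia-like cells of WT, Fcgr2b in border macrophage-like cells of WT and Fcgr4 in non-classical monocyte-like cells, where the deficient library had 1083 CPM, against 357.3 and 410.2 CPM in WT.

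**Figure D5:**
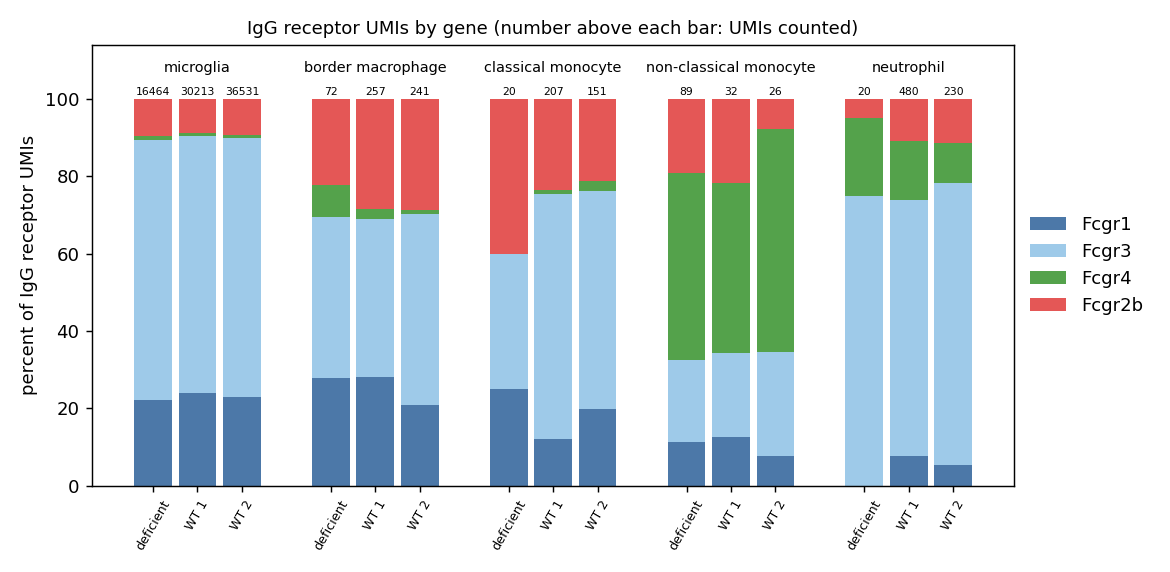
Share of IgG receptor UMIs from Fcgr1, Fcgr3, Fcgr4 and the inhibitory Fcgr2b in each class, with the deficient library left of WT 1 and WT 2 and the number of UMIs above each bar. Fcgr2b took 9.72% in microglia-like cells of the deficient library, against 8.88% and 9.25% in the WT libraries, and more in border macrophage-like cells of every library.

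In WT, the order of levels over classes differed by gene. Fcgr3 was highest in microglia-like cells, then in border macrophage-like, classical monocyte-like and neutrophil-like cells, and in WT the non-classical monocyte-like interval overlapped that of neutrophil-like cells. Fcgr1 was alike in microglia-like and border macrophage-like cells within the counting intervals and lower in the other classes. Siglece was highest in microglia-like cells of WT, followed by neutrophil-like and border macrophage-like cells, whose intervals overlapped. Cd33 was highest in microglia-like cells of WT, though border macrophage-like cells of WT 1 overlapped them, and neutrophil-like overlapped border macrophage-like cells. Fcgr2b was highest in border macrophage-like cells of WT, with microglia-like and both kinds of monocyte-like cells next in WT 1, where their intervals overlapped in part. In the deficient library Fcgr2b stood at 428.5 CPM in border macrophage-like cells and 428.0 CPM in non-classical monocyte-like cells. Fcgr4 was highest in non-classical monocyte-like cells, and neutrophil-like cells overlapped border macrophage-like cells after them. Fcer1g was highest in non-classical and then in classical monocyte-like cells. Over the 13 class and library pools with at least 10 cells, the genes most like each member in log2(CPM + 1) were listed from 5333 genes, as a description over pools that share libraries and depth. Fcgr1 was most like Hpgd (Pearson r 0.986), P2ry6 and Dcaf8, and Fcgr3 most like Pik3r1 (0.980), Camk1 and Smap2. Fcgr4 was most like Pmvk (0.872), Lcp1 and Fabp4, Fcgr2b most like Ms4a6d (0.945), Chd3 and Cnbp, and Fcer1g most like Hcls1 (0.958), Rab29 and Cdc42se1. Siglece was most like Prkab1 (0.923), Prorsd1 and Apmap, and Cd33 most like Clec5a (0.986), Ncoa4 and Phactr2.

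The genes that act with these receptors were taken from lists. As background for their counts, 1.73% of all 11882 genes tested were called higher and 6.79% lower. Of 19 measured genes of ITAM adaptors and activating signalling, 0 rose and 2 fell, with a median log2 fold change of 0.024 against -0.0012 over all genes. Tyrobp, the partner chain of many activating receptors, had 3343 CPM in the deficient library, against 2783 and 2994 CPM in WT, and did not pass (adjusted p = 0.392, edgeR). Grb2, an adaptor that links receptors to Ras, had 44.0 CPM in the deficient library, against 136.3 and 123.9 CPM in WT, and fell by 1.56 on the log2 scale (SE 0.11, adjusted p = 9.62e-08). The other called gene, the kinase Src, was named after its values were seen and fell by 0.80, a call that neither DESeq2 (adjusted p = 0.418) nor limma voom (0.0510) made. At an unadjusted p under 0.05, 2 genes of the list were higher and 4 lower, against 2366 of all 11882 genes in either direction. Of 12 phosphatases and adaptors of ITIM signalling, 0 rose and 1 fell, with a median of -0.084. That gene was Csk, a kinase that restrains Src family kinases, with 96.2 CPM in the deficient library, against 155.6 and 144.2 CPM in WT, and a log2 fold change of -0.63 (adjusted p = 0.000377). Inpp5d, which encodes the phosphatase that Fcgr2b recruits, had a log2 fold change of 0.27, and Ptpn6, which encodes a phosphatase that ITIMs recruit, of -0.18. Neither passed (adjusted p = 0.133 for Inpp5d and 0.347 for Ptpn6, edgeR).

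Among other Fc receptors and relatives, 5 of 13 were measured, of which 1 rose and 0 fell, with a median of 0.37. Over all genes 1.73% rose and 6.79% fell. Fcgrt, which encodes the neonatal Fc receptor that salvages IgG, had 151.7 CPM in the deficient library, against 116.5 and 119.5 CPM in WT, and rose by 0.37 on the log2 scale (SE 0.089, adjusted p = 0.0152, edgeR), a call not made by DESeq2 (adjusted p = 0.209). Fcrls, a microglial gene of the Fc receptor-like family, had 2723 CPM in the deficient library, against 2338 and 2515 CPM, and did not pass (adjusted p = 0.5001). Of 6 other Siglecs measured, 1 rose and 0 fell, with a median of 0.17. Siglecg had 14.3 CPM in the deficient library, against 8.47 and 7.20 CPM in WT, or 0.88 higher on the log2 scale (SE 0.20, adjusted p = 0.00970), which DESeq2 did not call (adjusted p = 0.363). Siglech, a microglial Siglec that pairs with Tyrobp, had 1497 CPM in the deficient library, against 1319 and 1334 CPM, and did not pass (adjusted p = 0.428).

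Of 17 other inhibitory receptors, 0 rose and 2 fell, with a median of -0.0046, where 1.73% of all genes rose and 6.79% fell. Sirpa, the receptor for the signal CD47, had 620.4 CPM in the deficient library, against 871.0 and 858.1 CPM in WT, and fell by 0.47 on the log2 scale (SE 0.11, adjusted p = 0.0131, edgeR). The other, Clec12a, rested on 3 UMIs of the deficient library, set against 55 and 38 in the WT libraries, and limma voom did not call it (adjusted p = 0.0640). Of 8 other activating receptors measured of 17, 0 rose and 2 fell, with a median of -0.098, and those 2, Clec4e and Clec4d, had 1 UMI each in the deficient library, against 47 and 22 of Clec4e and 26 and 33 of Clec4d in WT. Clec4d was named after its values were seen. These 3 genes of few UMIs moved with the neutrophil genes S100a8 and S100a9 given above, and the part of neutrophil RNA in them was not tested. DESeq2 gave none of the 3 an adjusted p. Trem2 had 3075 CPM in the deficient library, against 2790 and 2885 CPM, and did not pass (adjusted p = 0.652).

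Of 21 measured genes of sialic acid synthesis, transfer and removal, 0 rose and 4 fell, with a median of -0.21. Over all genes 1.73% rose and 6.79% fell. Cmas, which encodes the enzyme that activates sialic acid for transfer, had 8.26 CPM in the deficient library, against 46.8 and 47.4 CPM in WT, and fell by 2.50 on the log2 scale (SE 0.16, adjusted p = 3.11e-08, edgeR). The others that fell were named after their values were seen: the sialyltransferase genes St3gal2 (log2 fold change -1.30) and St3gal3 (-0.91), and Casd1 (-0.63), which encodes an enzyme that acetylates sialic acid. DESeq2 did not call St3gal3 (adjusted p = 0.328) or Casd1 (0.149). The sialyltransferase gene of the highest level, St3gal6, had 444.9 CPM in the deficient library, against 460.3 and 458.6 CPM in WT, and did not pass (adjusted p = 0.886). At an unadjusted p under 0.05 with edgeR, 1 gene of the ITIM signalling list was higher and 1 lower. These counts were 3 and 0 for other Fc receptors, 1 and 0 for other Siglecs, 1 and 4 for other inhibitory receptors, 0 and 3 for other activating receptors, and 2 and 8 for the sialic acid genes. Over all 11882 genes tested, 2366 had such a p, both directions together. Over the 7 lists DESeq2 called 0 genes higher and 5 lower, and limma voom 2 higher and 10 lower. Over all genes DESeq2 called 4.68% and limma voom 7.20%.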

How the data were processed

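The authors deposited unnormalized UMI counts, 1 table for each library. The submitters' processing notes name Cell Ranger 3.0, Seurat 2.2 and mm10. Barcodes were kept from 500 UMIs and 200 genes up, with no more than 10% of UMIs mitochondrial. A cell joined a class when its markers reached a share of its UMIs and a number of markers: 1% and 4 for microglia, 0.2% and 3 for border macrophages, 0.3% and 4 for classical monocytes, 0.1% and 3 for non-classical monocytes, and 5% and 4 for neutrophils. These limits were set with the data in hand. Cells that met the limits of several classes (0, 32 and 24 in the deficient, WT 1 and WT 2 libraries) were left out, except that neutrophil with monocyte markers counted as neutrophil and both monocyte kinds as non-classical. No doublet caller was run, so doublets can remain. The members, marker lists and gene lists were chosen with earlier results of these data known.

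For each library the UMIs of its microglia-like cells were added up. Of 11979 genes listed in every table, filterByExpr kept 11882 for the quasi-likelihood test of edgeR 4.0.16 (TMM, deficient minus WT, in R 4.3.3), with p-values adjusted by Benjamini-Hochberg and called under 0.05. The step was tested on simulated data in which all genes had the same spread between libraries. That test therefore cannot speak for genes that vary more between the WT libraries. Intervals cover counting error only. The alternatives were other size factors, no filter, DESeq2 1.42.0, limma voom 3.58.1, a strict cell filter (1000 UMIs, 500 genes, 5% mitochondrial), other cell sets, Leiden clusters without the members (scanpy 1.11.5), thinning to 1000 UMIs, and each WT library left out. Named genes were the members, the 3 genes of highest level and the called gene of largest fold in each list, and the 3 genes most like each member among those with a mean of at least 20 CPM. Positions are from GENCODE on mm10.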

Additional observations from a re-analysis of the deposited data

Results flagged for a closer look

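Fcgr2b of the deficient library lay on opposite sides of WT in 2 cell classes. The log2 ratio of the deficient CPM to the mean WT CPM was -0.34 in border macrophage-like cells, where the deficient library lay below both WT libraries, and 0.30 in microglia-like cells, where it lay above both. The difference between the classes was not tested. The deficient value in border macrophage-like cells rests on 16 UMIs in 10 cells, and its counting interval overlaps those of WT. With classes from Leiden clusters the difference in border macrophage-like cells was smaller, at 368.7 CPM in the deficient library, against 392.5 and 439.1 CPM in WT.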

How the results depend on the processing

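Each member kept the direction of its fold in microglia-like cells under every alternative run. The fold of Fcgr1 stood at 0.021 after thinning, against 0.13 in the main fit. With DESeq2, 485 genes were called in place of 1012, and Siglece (log2 fold change -0.83) was not among them. Fcgr2b passed with Leiden clusters (0.32), without microglia high in state genes (0.31) and after thinning (0.45), and Fcgr4 passed over all retained cells (0.59, adjusted p = 0.0263). The cause of these changes was not tested. With 1 WT library left out, log2 fold changes, which then have no test, lay between -1.001 and -0.65 for Siglece, 0.11 and 0.15 for Fcgr1, 0.16 and 0.29 for Fcgr3, 0.24 and 0.58 for Fcgr4, 0.23 and 0.40 for Fcgr2b, 0.20 and 0.35 for Fcer1g, and 0.13 and 0.14 for Cd33. The deficient minus WT difference in the Fcgr2b share of IgG receptor UMIs was 0.929 points with the stricter marker limit and 1.49 points after thinning. It was 0.472 to 0.844 points with 1 WT library left out. The stricter limit allowed a microglia-like cell UMIs of at most 1 marker of each other class. It kept 2167 of 2197 cells in the deficient library, against 828 of 3922 in WT 1 and 2076 of 4410 in WT 2. Border macrophage-like shares were 1.77% in WT 1 and 1.46% in WT 2 with Leiden clusters, against 0.760% and 0.579% by marker UMIs, and the neutrophil-like share of WT 2 was 2.29% with the strict cell filter, against 2.89%. Of 84 member levels in the small classes, 13 moved outside their intervals with Leiden clusters and 0 with the strict filter. Of 21 neutrophil-like levels, 5 did so without the cluster led by Elane, a setting chosen after seeing the data. No paired analysis was possible because the groups share fewer than 2 replicate numbers. With 1 deficient library, p-values take its spread from the WT pair and largely from a spread estimated over all genes. Levels in the small classes of the deficient library rest on 4 to 17 cells.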
